A study of Homo sapiens with 6 samples.

Results

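FDXR and GRIN2C are 2 of the 39020 genes listed in at least 1 of the series' libraries. They were picked by their gene symbols because counts of both were higher after irradiation and because they lie side by side on chromosome 17. The changes between irradiated and untreated libraries therefore chose them, and those changes are given below as a description, without a test. FDXR (ENSG00000161513) spans 74862497 to 74872994 and GRIN2C (ENSG00000161509) spans 74842023 to 74861532 in the RefSeq table of GRCh38.p14, with 964 bases between them. Both are protein-coding genes.

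The cells were U2OS, a human osteosarcoma line. iCLIP crosslinks RNA to bound protein with ultraviolet light and reads the RNA pulled down with that protein, here FLAG-tagged TIRR. TIRR, the product of NUDT16L1, binds the double-strand break repair protein 53BP1. The iCLIP groups were 2 libraries of TIRR_FLAG cells that had 4 h of recovery after 5 Gy of X-rays and 2 libraries of untreated TIRR_FLAG cells, so both groups carry the tagged protein. RNA-seq had 1 library of WT cells under the same dose and recovery, per the labels, and 1 of untreated WT cells. For RNA-seq the design text names gamma rays instead, and whether both assays used one source is unclear. Empty-vector cells were not analysed here, so the iCLIP values carry no background correction. Separate cultures are not stated for the replicates, so p-values reflect only how far these libraries differ, and that spread may be technical.

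FDXR encodes ferredoxin reductase, a mitochondrial flavoprotein that passes electrons from NADPH to the ferredoxins. These feed the mitochondrial cytochrome P450 enzymes of steroid, bile acid and vitamin D metabolism, and they serve the assembly of iron-sulfur clusters. FDXR is a textbook target gene of the transcription factor p53 and a widely used transcript marker of radiation exposure in blood. GRIN2C encodes GluN2C, a glutamate-binding subunit of NMDA receptors that is best known from granule cells of the cerebellum. Both genes are transcribed from the minus strand, so GRIN2C lies downstream of FDXR.

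The start region of FDXR is shown because it is the upstream end of the tandem pair. A further reason is p53, the factor FDXR is known for, which binds a DNA motif built from decamers called p53 half-sites. A lone half-site is only a part of that motif. RefSeq's promoter table (GRCh38.p14) holds 2 windows for FDXR, each running from 250 bases before to 50 after a transcript start, and the window at the start of the full-length gene is chr17:74872945-74873244, minus strand. Capitals mark the only match to the half-site consensus, searched on both strands.
FDXR promoter: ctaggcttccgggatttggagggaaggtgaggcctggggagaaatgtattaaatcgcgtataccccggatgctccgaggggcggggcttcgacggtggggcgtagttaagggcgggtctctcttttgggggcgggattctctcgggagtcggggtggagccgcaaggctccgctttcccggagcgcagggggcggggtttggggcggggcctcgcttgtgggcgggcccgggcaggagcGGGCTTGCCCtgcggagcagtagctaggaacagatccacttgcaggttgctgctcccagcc
The match begins 11 bases before the start. A window of this kind holds at least 1 match in 6.63% of the 35116 windows of the table. The second FDXR window (chr17:74868704-74869003, an internal start) held none of these letters. Of the 28 other p53 target genes listed below that are in the table, 5 had a match in any of their windows, or 17.9%, against 8.06% of all 27305 genes. A match is a description of the letters and not of binding, and the deposited counts are per gene, so they do not tell the starts apart.

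The irradiated iCLIP libraries held 400723 and 664777 counts on genes, the untreated ones 781997 and 799709. The RNA-seq libraries held 13023903 (irradiated) and 13015406 (untreated). The iCLIP tables list genes with at least 1 count, and 654 of the 3105 genes with 2000 or more summed RNA-seq counts (21.1%) appear in none of them, while 133 have 1 to 9 iCLIP counts. A gene without an iCLIP line is therefore not read as unbound. RNA-seq showed the mesenchymal markers SPARC, COL1A1 and VIM with 24912, 44204 and 33956 counts in the irradiated library, against 23955, 35832 and 36294 in the untreated one. COL1A2 and TWIST1, from the same list, had 6 or fewer counts in either. The 4 epithelial markers were listed as well. KRT8 and KRT18 had 2641 and 3451 RNA-seq counts in irradiated and 2613 and 3836 in untreated cells, and EPCAM and CDH1 had 57 or fewer. In iCLIP, KRT8 had 65 and 103 counts in irradiated and 125 and 102 in untreated cells. Of the 3 blood markers, 1 was listed: PTPRC had 1 and 2 iCLIP counts in irradiated and 5 and 3 in untreated cells, and 12 RNA-seq counts in each library. The 8 mesenchymal markers summed to 0.0796% and 0.0824% of iCLIP gene counts in irradiated and 0.126% and 0.124% in untreated cells, with SPARC, COL1A1, COL1A2 and TWIST1 at 0. RUNX2, the osteoblast transcription factor gene that makes up most of that sum, had 267 and 469 against 875 and 889 counts and fell by 0.63 on the log2 scale (edgeR adjusted p = 0.00426; 0.0550 without untreated library 1). Its part in the values below was not tested. NUDT16L1 had 184 RNA-seq counts in irradiated and 208 in untreated cells.

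FDXR was among the RNAs with the most iCLIP counts after irradiation. It had 598 and 1101 counts in the irradiated libraries, against 150 and 141 in the untreated ones. As a share of gene counts this was 0.149% (exact Clopper-Pearson 95% interval 0.138 to 0.162) and 0.166% (0.156 to 0.176) in irradiated cells, and 0.0192% (0.0162 to 0.0225) and 0.0176% (0.0148 to 0.0208) in untreated cells. Intervals of this kind cover counting error only. Both irradiated libraries lay far above both untreated ones, and the replicates of each group lay close together. By count, FDXR ranked 35 of 18715 and 27 of 20887 listed genes in the irradiated libraries, and 1030 of 21600 and 1147 of 22029 in the untreated ones.

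GRIN2C showed the same picture at a somewhat lower level. It had 473 and 580 iCLIP counts in irradiated cells, against 95 and 110 in untreated cells. Its share of gene counts was 0.118% (exact Clopper-Pearson 95% interval 0.108 to 0.129) and 0.0872% (0.0803 to 0.0946) in irradiated cells, and 0.0121% (0.00983 to 0.0149) and 0.0138% (0.0113 to 0.0166) in untreated cells. The groups did not overlap, but the irradiated libraries differed from each other by more than counting error. Its rank by count was 49 and 77 in the irradiated libraries and 1897 and 1607 in the untreated ones. Both genes together took 0.267% and 0.253% of the gene counts in irradiated cells, against 0.0313% and 0.0314% in untreated cells.

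On the scale of CPM, counts per 1000000 gene counts after TMM scaling, FDXR had 1538 and 1685 CPM in irradiated cells and 188 and 172 CPM in untreated cells. The means were 1611 ± 104 and 179.8 ± 11.0 CPM (SD, n = 2 each). The log2 fold change of the edgeR fit over all genes was 3.16 ± 0.14 (SE), or 8.97-fold, and the 4 possible ratios of an irradiated to an untreated library ran from 8.20 to 9.79. GRIN2C had 1217 and 887 CPM in irradiated cells and 119 and 134 CPM in untreated cells, with means of 1052 ± 233 and 126 ± 10.9 (SD, n = 2 each). Its log2 fold change was 3.04 ± 0.17 (SE), or 8.25-fold, with library ratios from 6.61 to 10.2. By size of the log2 fold change they ranked 4 and 5 among 9230 tested genes. Among these, 22.0% had both irradiated libraries above both untreated ones, and 2.43% passed the edgeR test upward (Benjamini-Hochberg adjusted p under 0.05), figures from the contrast that chose the pair. In bulk libraries, more cells with a given RNA and more of that RNA per cell cannot be told apart.

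**Figure D1:**
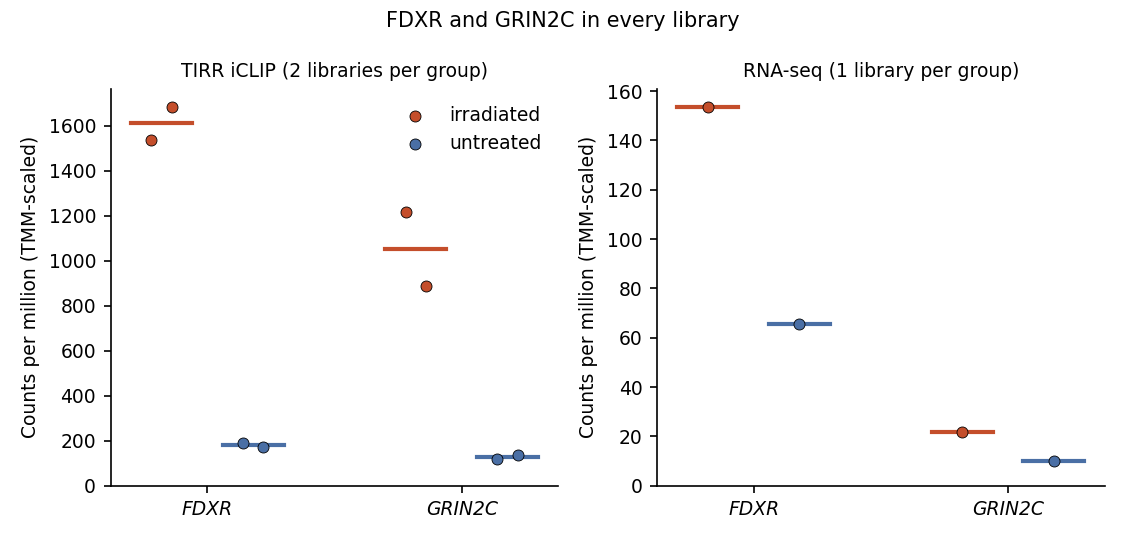
CPM (counts per 1000000 gene counts after TMM scaling) for FDXR and GRIN2C in TIRR iCLIP (left) and RNA-seq (right), with irradiated libraries left of untreated ones; points are libraries and bars are group means. Irradiated iCLIP libraries had 887 CPM or more for both genes and untreated ones 188 CPM or less; the panels have different y scales.

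Per length, FDXR was the denser of the pair in every library. Its level was 153 ± 9.83 CPM per kb in irradiated and 17.1 ± 1.04 in untreated cells (SD, n = 2 each), over an annotated length of 10535 bases. GRIN2C, annotated with 19482 bases, had 54.0 ± 11.9 and 6.49 ± 0.559 CPM per kb. These lengths are close to the RefSeq gene spans of 10498 and 19510 bases, introns included, so they are not transcript lengths. By counts per kb, FDXR ranked 20 and 19 in the irradiated libraries, among 18344 and 20440 genes of at least 200 bases, against 172 and 190 in the untreated ones. GRIN2C ranked 44 and 67 in irradiated cells, against 766 and 682 in untreated cells.

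The balance between the neighbours did not move in one direction with irradiation. There were 1.26 FDXR counts per GRIN2C count (exact 95% interval 1.12 to 1.43) and 1.90 (1.72 to 2.10) in the irradiated iCLIP libraries, against 1.58 (1.21 to 2.06) and 1.28 (0.992 to 1.66) in the untreated ones. Both untreated values lay between the irradiated ones, and the widest gap was between the irradiated replicates. The log2 fold change of FDXR minus that of GRIN2C was 0.12, less than the spread of this difference between replicates (SD 0.33).

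In RNA-seq the balance was another. FDXR had 7.03 counts per GRIN2C count (exact 95% interval 6.21 to 7.99) in the irradiated library and 6.62 (5.49 to 8.03) in the untreated one. Every RNA-seq interval lay above every iCLIP interval. Per kb of gene span, FDXR exceeded GRIN2C 13.0-fold in the irradiated and 12.2-fold in the untreated RNA-seq library. In iCLIP the values were 2.34-fold and 3.51-fold in irradiated and 2.92-fold and 2.37-fold in untreated libraries. The assays also differ in genotype, since RNA-seq used WT cells, and assay and genotype cannot be told apart here.

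**Figure D2:**
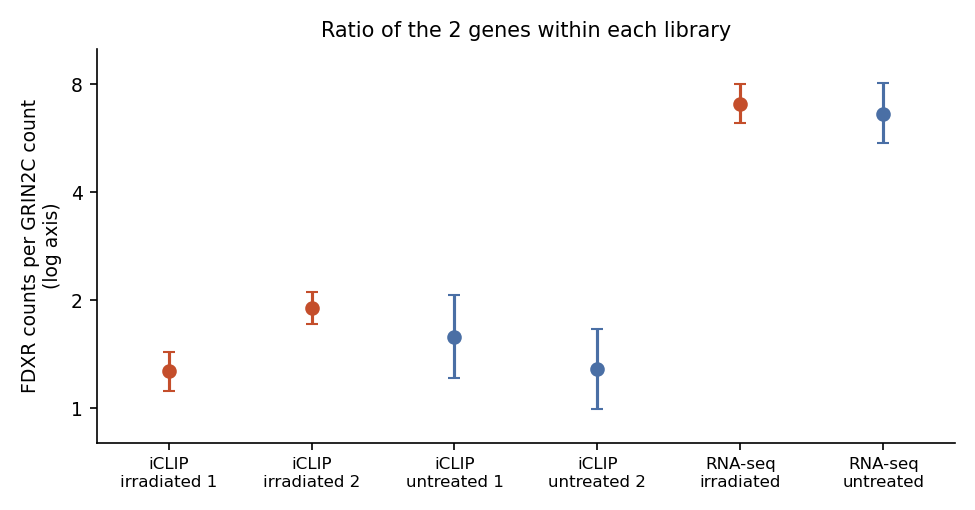
FDXR counts per GRIN2C count in each library (log axis), with exact 95% intervals that cover counting error only; irradiated libraries are left of untreated ones within each assay. The 4 iCLIP libraries lie between 1.26 and 1.90, and both RNA-seq libraries at 6.62 or above.

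RNA-seq counts of both genes were also higher in the irradiated library, with 1 library per condition and hence no replicate check. FDXR had 2012 counts in irradiated and 847 in untreated cells, or 154 and 65.4 CPM, a ratio of 2.35 (exact 95% counting interval 2.17 to 2.55). GRIN2C had 286 and 128 counts, or 21.8 and 9.89 CPM, a ratio of 2.21 (1.79 to 2.74). The intervals of the neighbours overlap. Both genes met a size rule of at least 100 counts in either library, a 2-fold ratio and an interval beyond 1.5-fold, which 0.863% of 12977 genes met upward; this contrast also served to choose them.

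The gain in CPM was spread over the pair much as the untreated level was. Untreated cells had 179.8 CPM for FDXR and 126 for GRIN2C in iCLIP, and 65.4 and 9.89 in RNA-seq. In iCLIP, irradiated minus untreated means gave 1432 CPM for FDXR and 925 for GRIN2C, or 0.647 GRIN2C for each FDXR. In RNA-seq the differences were 88.3 and 12.0 CPM, or 0.135 GRIN2C for each FDXR. Gene-level counts do not show whether a GRIN2C count comes from a transcript begun at its own start or at that of FDXR, and this was not tested.

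Relative to RNA-seq, both genes were well represented in the TIRR libraries, GRIN2C more so. The iCLIP share of GRIN2C was 53.7 and 39.7 times its RNA-seq share in irradiated cells and 12.4 and 14 times in untreated cells. For FDXR the ratio was 9.67 and 10.7 in irradiated and 2.96 and 2.72 in untreated cells. The median gene with at least 50 RNA-seq counts and a line in any iCLIP table had 0.819 in irradiated cells (11412 genes) and 0.853 in untreated cells (11385 genes). GRIN2C was at the 99.6 percentile of these genes in irradiated and the 96.6 percentile in untreated cells, FDXR at 95.2 and 78.5. All values of a condition share 1 RNA-seq library.

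The change in iCLIP exceeded that in RNA-seq by 1.93 on the log2 scale for FDXR and 1.90 for GRIN2C, or 3.82-fold and 3.73-fold. Among 7095 other genes tested in iCLIP that reached 100 RNA-seq counts under either condition, 5 had a larger excess than FDXR and 7 a larger one than GRIN2C. The median excess was 0.01. The changes behind this excess also chose the pair, so these ranks are a description. RNA-seq used WT cells without replicates and iCLIP used TIRR_FLAG cells, so assay and genotype cannot be told apart in this excess.

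Against other p53 target genes, FDXR was in the middle by RNA-seq and at the top by iCLIP. Its changes in both assays served to choose it, so these places are a description. The list held 33 other genes, chosen with earlier results of these data known, of which 20 were tested in iCLIP, and 15 of these rose (75.0%, against 2.43% of all genes) and 0 fell (1.07% of all). Their median log2 fold change was 1.63, against 0.00157 over all tested genes. BBC3, the gene of the apoptosis inducer PUMA, rose 7.28-fold (edgeR adjusted p = 7.61e-09). CDKN1A, the gene of the cell cycle inhibitor p21, rose 7.63-fold, and MDM2, the ubiquitin ligase that restrains p53, rose 5.15-fold (edgeR adjusted p = 9.6e-08 for both). FAS, RRM2B, TP53INP1, BLOC1S2, ZMAT3, CYFIP2, DDB2, POLH, PHLDA3, FBXO22, SUSD6 and BAX also rose, from 2.05-fold for BAX to 6.20-fold for FAS. Without irradiated library 2, FAS and BAX no longer passed (edgeR adjusted p = 0.0794 and 0.535). DESeq2 called 11 of the 20, against 105 genes called as risen among all 9230. Here and below, a gene to which DESeq2 gave no adjusted p counts as not called, and FAS was such a gene. BAX missed with DESeq2 (adjusted p = 0.0916) and after thinning to equal depth (edgeR adjusted p = 0.107). TNFRSF10B, SESN1, ATF3, PMAIP1 and TP53I3 did not pass, with log2 fold changes of 0.66 to 1.03, and are named after their values were seen.

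None of the 20 had a larger iCLIP log2 fold change than FDXR, and 9 had a larger RNA-seq ratio. Their median RNA-seq ratio was 2.20, close to the 2.35 of FDXR and the 2.21 of GRIN2C. Their median excess of iCLIP over RNA-seq change was 0.53 on the log2 scale, and the range was -1.19 to 1.15, below both FDXR and GRIN2C. The pair was chosen by its changes in these libraries, so its place above that range is a description. In RNA-seq 23 of 32 judged members of this list met the size rule upward, against 0.863% of all 12977 judged genes.

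**Figure D3:**
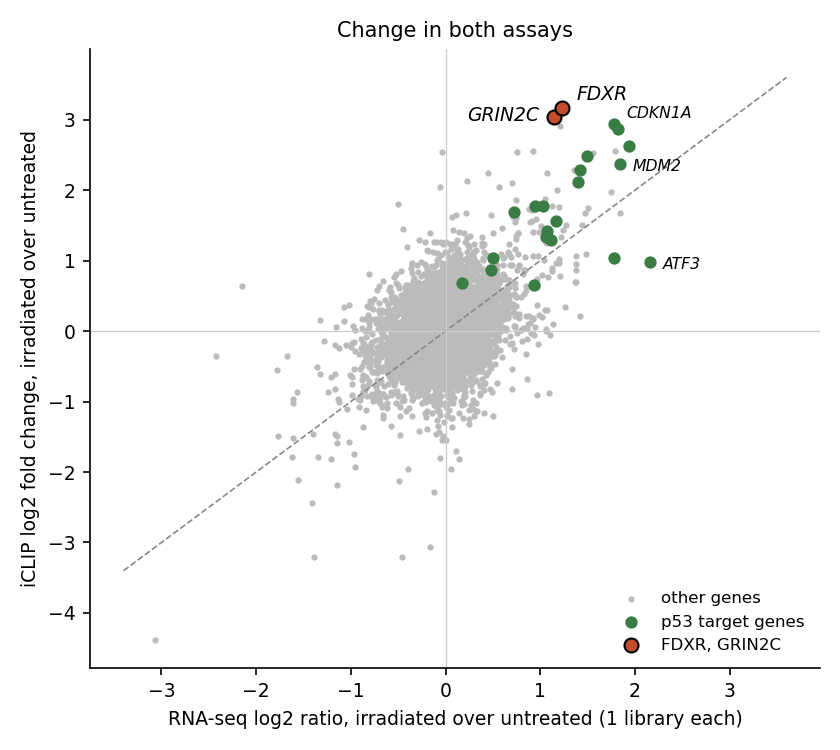
Log2 ratio of irradiated over untreated in RNA-seq (x axis, 1 library each) against the iCLIP log2 fold change (y axis) for genes tested in iCLIP that reached 100 RNA-seq counts under either condition; green points are p53 target genes and the dashed line marks equal change. FDXR and GRIN2C lie 1.93 and 1.90 above the line.

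Of 40 other genes of ferredoxin function, iron-sulfur clusters and iron handling (such as TFRC, FTH1 and FTL), 12 were tested in iCLIP and 28 were not. Of the 12, 0 passed the edgeR test, 0 had an unadjusted p under 0.05 and 0 passed with DESeq2, where 3.5% of all tested genes passed edgeR in either direction, so a count of 0 in a list of this size is near the background. Their log2 fold changes ran from -0.27 to 0.46 with a median of -0.10. HSCB, a co-chaperone of cluster transfer, had 38 and 71 counts in irradiated and 107 and 97 in untreated cells, or -0.27 on the log2 scale (edgeR adjusted p = 0.570). LYRM4, a partner of the cysteine desulfurase, had 0.05, NDOR1, a reductase of the cytosolic pathway, -0.19, and IREB2, an iron-regulatory protein gene, -0.11 on the same scale (edgeR adjusted p = 0.960, 0.80 and 0.905). Of the 40 genes, 15 had no iCLIP line.

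The ferredoxins that FDXR reduces were named after their values were seen. FDX1 had no iCLIP line and 270 RNA-seq counts in irradiated against 187 in untreated cells, a ratio of 1.43 (exact 95% counting interval 1.18 to 1.73). FDX2 had 1 iCLIP count in all and 18 and 21 RNA-seq counts. Of 37 judged genes of this list, 0 met the RNA-seq size rule in either direction, against 0.863% of all judged genes upward and 0.624% downward.

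A list of 14 genes of P450 and steroid metabolism, not all of which depend on ferredoxin, gave 4 tested genes. There were 0 calls (edgeR, against 3.5% of all tested genes), with 1 at an unadjusted p under 0.05 and 0 with DESeq2. POR, the reductase of the microsomal P450 enzymes, had 10 and 24 counts in irradiated and 54 and 51 in untreated cells, or -0.995 on the log2 scale (edgeR adjusted p = 0.0587). POR passed when scaled by library totals (edgeR adjusted p = 0.0439). DESeq2 gave POR no adjusted p, so the 0 with DESeq2 does not judge this gene. STARD3, CYP27C1 and TSPO had log2 fold changes of 0.28, 0.42 and 0.03 (edgeR adjusted p = 0.668, 0.455 and 0.985). CYP11A1, the side-chain cleavage enzyme that starts steroid synthesis and also named after its values were seen, had 1 and 2 iCLIP counts in irradiated and 6 and 5 in untreated cells, and 8 and 9 RNA-seq counts.

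The ionotropic glutamate receptor list held 18 other genes, with GRINA counted among them though it encodes no receptor subunit. Of these, 7 were tested in iCLIP and 0 passed the edgeR test, near the 3.5% of all tested genes for a list of this size. Of the 7, 0 had an unadjusted p under 0.05 and 0 passed with DESeq2, with log2 fold changes from -0.39 to 0.43 and a median of 0.15. GRID1, a delta receptor gene, had 305 and 531 counts in irradiated and 605 and 562 in untreated cells, or 0.15 on the log2 scale (edgeR adjusted p = 0.657). Among NMDA receptor genes, GRIN2A had a log2 fold change of 0.19 and GRIN2B of -0.39 (edgeR adjusted p = 0.886 and 0.738). The kainate receptor genes GRIK2, GRIK4 and GRIK1 had 0.43, 0.25 and -0.01 (edgeR adjusted p = 0.433, 0.733 and 0.995).

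GRIN1, the subunit that NMDA receptors require, had 3 and 3 iCLIP counts in irradiated and 2 and 2 in untreated cells, and 2 and 3 RNA-seq counts. GRIN3A, GRIA1, GRIA2, GRIA3, GRIA4, GRIK3 and GRIK5 had at most 13 counts in any iCLIP library. The 8 neuronal and glial markers summed to 0.0167% and 0.0168% of iCLIP gene counts in irradiated and 0.0141% and 0.0155% in untreated cells, and 521 and 441 RNA-seq counts. Of these, RBFOX3, SYP and SNAP25 were tested and had log2 fold changes of 0.41, 0.30 and -0.38 (edgeR adjusted p = 0.344, 0.826 and 0.694). GFAP, OLIG2 and GABRA6, the last a marker of cerebellar granule cells, had no iCLIP line.

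**Figure D4:**
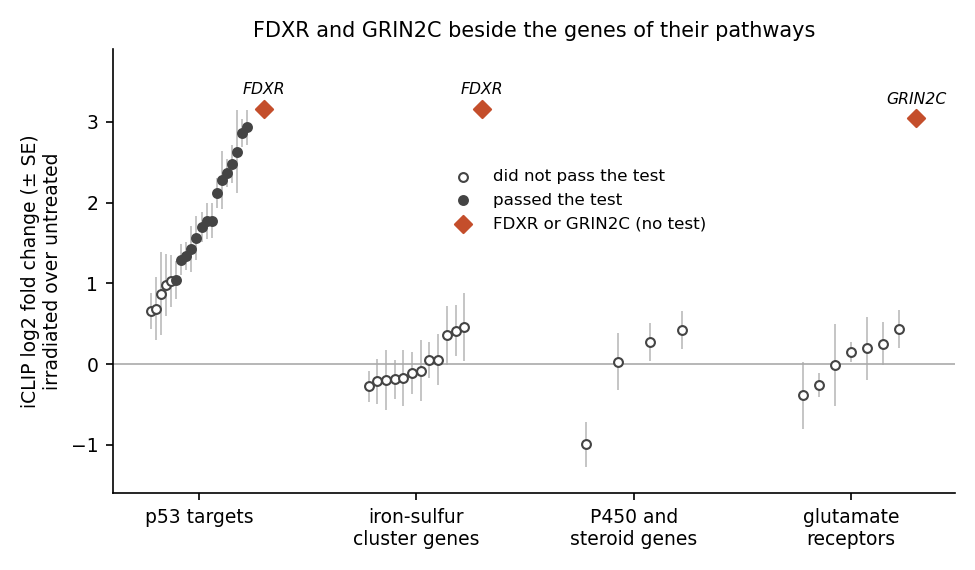
iCLIP log2 fold change (irradiated over untreated, ± SE) of the tested genes of each list, sorted within the list; filled points passed the edgeR test at an adjusted p of 0.05 and open points did not. FDXR and GRIN2C (diamonds) lie at 3.16 and 3.04, while the iron-sulfur and glutamate receptor genes stay between -0.39 and 0.46.

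Next to the pair, the 3 tested genes on the GRIN2C side did not pass in iCLIP, and the nearest tested gene on the FDXR side, KCTD2, did. RefSeq places 32 other genes within 250 kb, of which 14 had a line in any iCLIP table, 5 were tested and 1 passed, against 3.5% of all tested genes. TMEM104 (SLC38A12 in RefSeq), a predicted amino acid transporter gene 2269 bases beyond the end of GRIN2C and on the plus strand, had 25 and 49 iCLIP counts in irradiated and 55 and 55 in untreated cells. Its log2 change was 0.06 ± 0.23 (SE, edgeR adjusted p = 0.952), and its RNA-seq counts were 785 and 762. Farther out on that side, NAT9 at 65.7 kb and NHERF1 at 72.7 kb had 0.28 ± 0.39 and 0.20 ± 0.33 (SE, edgeR adjusted p = 0.816 and 0.863). SLC9A3R1-AS1 had 2 iCLIP counts in all and MIR3615 none.

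On the other side, FADS6 lies 1792 bases beyond FDXR. It had no iCLIP line and 0 and 3 RNA-seq counts. USH1G, a scaffold gene of inner ear hair cells at 43.1 kb, had no iCLIP line, but 110 RNA-seq counts in irradiated against 46 in untreated cells, a ratio of 2.36 (exact 95% counting interval 1.66 to 3.41). It was the only one of 9 judged neighbours that met the size rule, against 0.863% of all judged genes upward, and it lies under the alternative minimum of 500 counts. OTOP2 had 2 and 1 RNA-seq counts, HID1 had 25 and 26, and OTOP3 was listed in no library.

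The neighbour that passed was KCTD2, at 159.6 kb, a potassium channel tetramerisation domain gene. It had 208 and 308 CPM in irradiated and 175 and 69.5 CPM in untreated cells, for a log2 change of 1.11 ± 0.28 (SE; edgeR adjusted p = 0.0284). The untreated replicates lay farther apart than the groups' nearest libraries, and without untreated library 2 the log2 change was 0.58 (edgeR adjusted p = 0.270), and without untreated library 1 it was 1.90. DESeq2 gave an adjusted p of 0.756. In RNA-seq its ratio was 0.941 (exact 95% counting interval 0.888 to 0.998). KCTD2 overlaps ATP5PD, so counts of the 2 genes may be hard to separate.

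**Figure D5:**
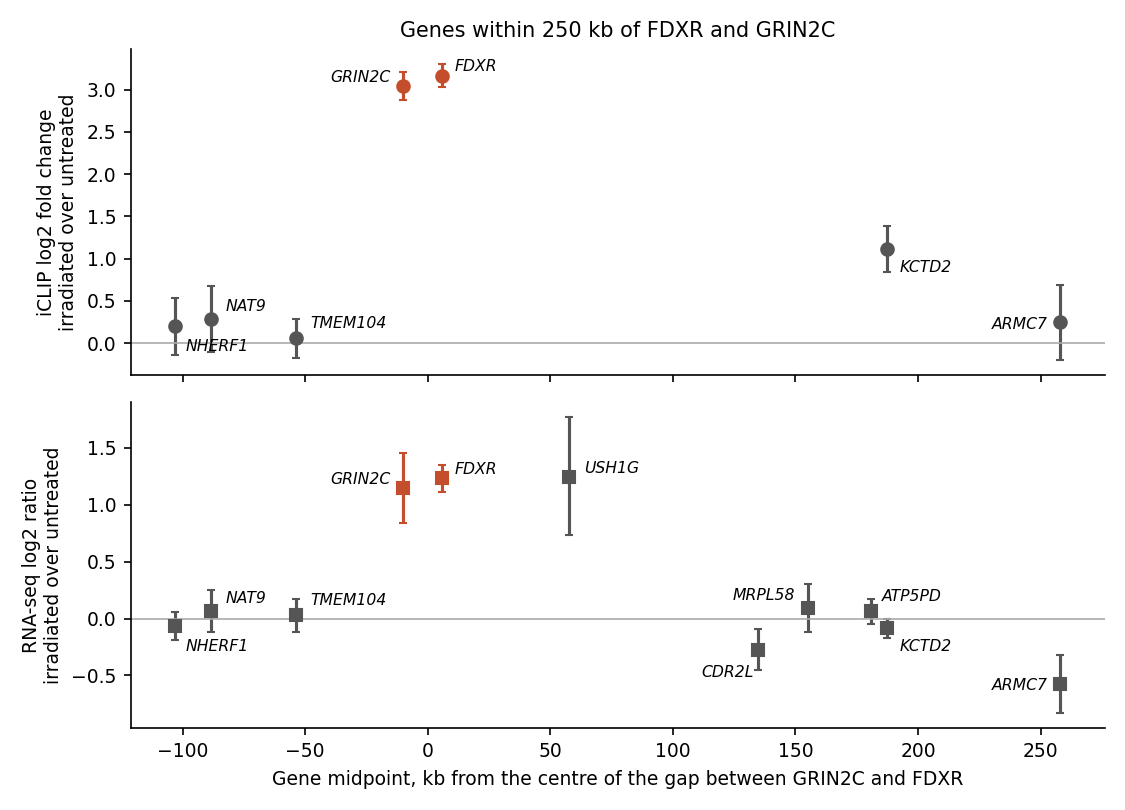
Genes within 250 kb of FDXR and GRIN2C by distance of their midpoint from the gap between the pair (x axis, kb). Top, iCLIP log2 fold change ± SE for tested genes; bottom, RNA-seq log2 ratio with exact 95% counting interval for genes that reached 100 counts under either condition. In iCLIP the pair stands at 3.16 and 3.04, TMEM104 beside it at 0.06, and in RNA-seq USH1G lies with the pair.

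Other close neighbours of risen genes were counted in the same way. Of 111 genes that rose at least 2-fold in iCLIP (1.2% of those tested), 101 had a RefSeq position. Leaving out FDXR and GRIN2C, 27 genes lay within 2 kb of one without overlap, and only 7 of them were tested. Of these 7, 0 rose (edgeR; 0 at an unadjusted p under 0.05, 0 with DESeq2), with log2 fold changes from -0.27 to 0.31. Against 2.43% of all tested genes, a count of 0 among 7 is near the background. Within 10 kb lay 77 genes, of which 27 were tested and 2 rose. These were LIG1 beside PLA2G4C and CHD9 beside CHD9NB, with log2 fold changes of 0.58 and 0.56 (edgeR adjusted p = 0.0241 and 0.0393). This was 7.41% of those tested within 10 kb, against 2.43% of all tested genes, and DESeq2 called 0 of them.

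Centred log2 CPM profiles over the 4 iCLIP libraries were compared among 8219 tested genes with a gene symbol. For genes that changed this much, such a profile mostly holds the contrast that chose the pair, so nearness is a description. Nearest to FDXR were BBC3, INPP5D, GRIN2C, CDKN1A and LINC01411, at Euclidean distances of 0.36, 0.39, 0.48, 0.59 and 0.63. For GRIN2C the nearest was FDXR, followed by CDKN1A (0.50), BBC3 (0.55), LINC01411 (0.61) and INPP5D (0.64). INPP5D, an inositol phosphatase gene, had 231 and 242 CPM in irradiated and 37.5 and 25.6 CPM in untreated cells, and the long noncoding RNA LINC01411 had 530 and 488 against 93.8 and 78.1. Both genes of the pair had higher CPM than these in all 4 libraries.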

How the data were processed

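The members and the gene lists were chosen with earlier results of these data known. For each gene the authors deposited a whole-number cDNA count in 4 iCLIP and 2 RNA-seq libraries, per the file headers, with the gene's length and its percent of all cDNA, intergenic counts included. The submitters' processing notes name the build hg38 and the tool kallisto 0.44.0; its part in these tables, the aligner, duplicate removal, annotation release and use of strand: not given in the sources used here. The intergenic line spans 4469334271 bases (iCLIP) or 4291815975 (RNA-seq), more than the 3086990947 bases up to the last RefSeq gene of every chromosome, so it cannot be 1 strand alone. Intergenic counts (30.6% to 31.3% of iCLIP, 44.4% of RNA-seq) entered neither library sizes nor tests. At least 99.75% of identifiers matched the name table, and RefSeq GRCh38.p14 gave positions and sequence.

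All genes were fitted with the edgeR 4.0.16 quasi-likelihood F test (R 4.3.3, TMM scaling, filterByExpr, two-sided, Benjamini-Hochberg at 0.05). Simulated counts for this comparison (9230 genes, 200 changed) gave recovery of 54% of 2-fold and 98% of 4-fold rises, 24% of 2-fold and 58% of 4-fold falls, and 0 false calls. They were drawn with the same spread between replicates for every gene. The 0 false calls therefore do not cover genes whose replicates vary more. RNA-seq ratios carry exact conditional intervals after TMM scaling, and shares exact binomial ones, all for counting error only. The assay ratio used a prior count of 0.5 and the profile distance a pseudocount of 0.5 CPM. Replicates differed beyond counting error, with chi-square per degree of freedom 1.87 (irradiated) and 1.42 (untreated). Named are the pair, the 5 nearest genes on each side, any called neighbour, called and most counted list members, glutamate receptor genes with at least 10 iCLIP counts, called close neighbours of risen genes and the 5 nearest profiles; exceptions are stated, and a few items are not reported here. Other tools were Python 3.11.15, scipy 1.17.1, matplotlib 3.10.9 and DESeq2 1.42.0. Alternatives were other scalings, filters, DESeq2, thinning, a replicate block and leaving out each library. Genes to which DESeq2 gave no adjusted p, FAS and POR among them, were counted as not called. How many list members DESeq2 judged was not counted.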

Additional observations from a re-analysis of the deposited data

How the results depend on the processing

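The iCLIP log2 fold changes of FDXR and GRIN2C moved by less than the spread between replicates under all 12 alternatives, and with 1 library left out they ran from 3.10 to 3.23 and from 2.81 to 3.26. Their difference ran from -0.17 to 0.42 with 1 library left out, so its sign is not settled. With a replicate block they were 3.16 and 3.03; same-numbered libraries did not deviate together (correlation -0.09 for both numbers), and the numbers share no stated source. The block also ended the RUNX2 call (edgeR adjusted p = 0.0550). Genes called as risen (224) numbered 105 with DESeq2, 129 with thinning to equal depth and 145 to 289 with 1 library left out. Genes called as fallen (99) numbered 17 with DESeq2, 36 with thinning, 40 with the replicate block and 41 to 132 with 1 library left out. The 1 called neighbour, KCTD2, became 0 with library totals that include intergenic counts, the stricter filter of 20 counts, DESeq2 and thinning, and 0 to 1 with 1 library left out. Called iron-sulfur and glutamate receptor genes were 0 under every alternative run, and p53 target genes called as risen (15) were 11 with DESeq2 and 13 to 15 with 1 library left out. RNA-seq genes above the size rule (112) numbered 56 with a minimum of 500 counts, and close neighbours called were 2 at 10 kb in place of 0 at 2 kb. The causes of these shifts were not tested. Of 32 neighbours, 14 had an iCLIP line and 5 passed the filter on low counts.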
